A study of Drosophila melanogaster with 4 samples.

Results

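The transcripts described here are those that the array design names after clones of an ovary cDNA library, with names made of GM and 5 digits. These clones were sequenced from ovary RNA by the Drosophila genome project, and 68 of the 25778 targets on the array carry such a name. They were chosen by name alone, from the spots that are not controls, and where a clone had several probes the probe with the brightest spots stood for it. The 68 clones had 91 probes, and 21 clones had more than 1.

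Total RNA of 3rd instar larvae of Drosophila melanogaster, copied from an oligo-dT primer, was compared on 4 Agilent arrays with 2 colours. The tested larvae carried the Hdac1 alleles Hdac1[303] and Hdac1[def8] over each other in the Oregon-R background (labelled with Alexa Fluor 647, red), and the control larvae were wild type Oregon-R (labelled with Alexa Fluor 555, green). All larvae were raised at 25 °C, and the labels call the 4 arrays biological replicates without giving the sex or the number of larvae in a sample. Each array therefore holds 1 mutant and 1 wild type sample, with the same dye orientation throughout, so a dye effect on a probe and an effect of the genotype cannot be told apart.

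Hdac1 encodes a class I histone deacetylase, known in the older literature as Rpd3, which removes acetyl groups from histone tails and works within corepressor complexes such as those built on Sin3. Loss of such an enzyme can change transcription of many genes in either direction. A cDNA clone from an ovary library shows that its transcript was present in that organ when the library was made, not that it is restricted to it, because ovaries load the egg with messenger RNA for housekeeping and regulatory proteins that are also used in somatic tissue. The ovary of a larva is a small primordium of germ cells and somatic cells, and the labels name larvae without naming a tissue. In such bulk RNA, fewer cells of a type and less RNA per cell cannot be told apart.

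The label was set against marker genes as far as the names allowed. The array's target names could be paired with a gene for only 270 of 25778 targets. None of 29 ovary and germ line genes and none of 17 eggshell and yolk genes (0 in both lists) were among those, so the word ovary rests on the clone names and no ovarian level was measured here. No target could be paired with Hdac1 itself (0 targets), so the mutation was not checked on these arrays.

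On the 4 arrays, between 84.0% and 86.8% of the spots were well above background in the mutant channel, and between 84.8% and 86.5% in the wild type channel. The median intensity per array lay between 1490 and 1970.5 for the mutant and between 316 and 504 for wild type, before the correction that places both on 1 scale. Ratios below are mutant over wild type on the log2 scale after that correction (loess), in which each array is centred on the bulk of its targets. A target was tested where 1 of the channels at its probe rose well above background on 3 or 4 of the 4 arrays, and it is called higher or lower where the adjusted p of limma (Benjamini-Hochberg over 21836 targets, two-sided) was under 0.05.

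Of the 68 ovary clones, 60 passed the filter on dim probes and were tested. In the mutant 18 of them rose, 25 fell, and 17 did not pass the threshold. The filter was passed through the mutant channel alone by 3 clones (GM14590, GM03978 and GM04921), a filter that favours a higher call, and 2 of the 18 higher calls are theirs. The called clones thus made up 71.7% of those tested, and 75.7% of all targets tested on the array were called. Higher calls took 30.0% of the ovary clones, against 38.1% of all targets, and lower calls took 41.7%, against 37.5% of all targets. At a change of at least 2-fold, 2 ovary clones were higher (3.33%) and 8 were lower (13.3%), beside 11.1% and 16.4% of all targets. These counts rest on the brightest probes. GM09255, among the higher, has another probe at -1.39, and GM09276, among the lower, has another at 0.02. The share of called clones was near that of the array, and no test set the clones against other targets as a group.

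The size of the changes was modest for most clones. The mean ratio lay between -1 and 1 for 50 of the 60, and the median over clones was -0.07, against 0.02 for all other targets. The quartiles of the clones were -0.71 and 0.39, and those of the other targets -0.65 and 0.56. The median over clones was -0.03, -0.21, -0.04 and -0.13 on the arrays of replicates 1 to 4, below 0 on each of them. Clones above 0 numbered 30, 24, 27 and 28 of 60 on those arrays. Ratios of the 60 clones correlated between pairs of arrays with r from 0.902 to 0.964, a description over clones that share the same RNA samples. The sign was the same on 4 of 4 arrays for 49 clones (81.7%), 22 of them positive and 27 negative, against 80.9% of all other targets. All 43 called clones had the same sign on every array. The call rests on those same ratios, so this is no separate support, and the share over all called targets is not given here.

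**Figure D1:**
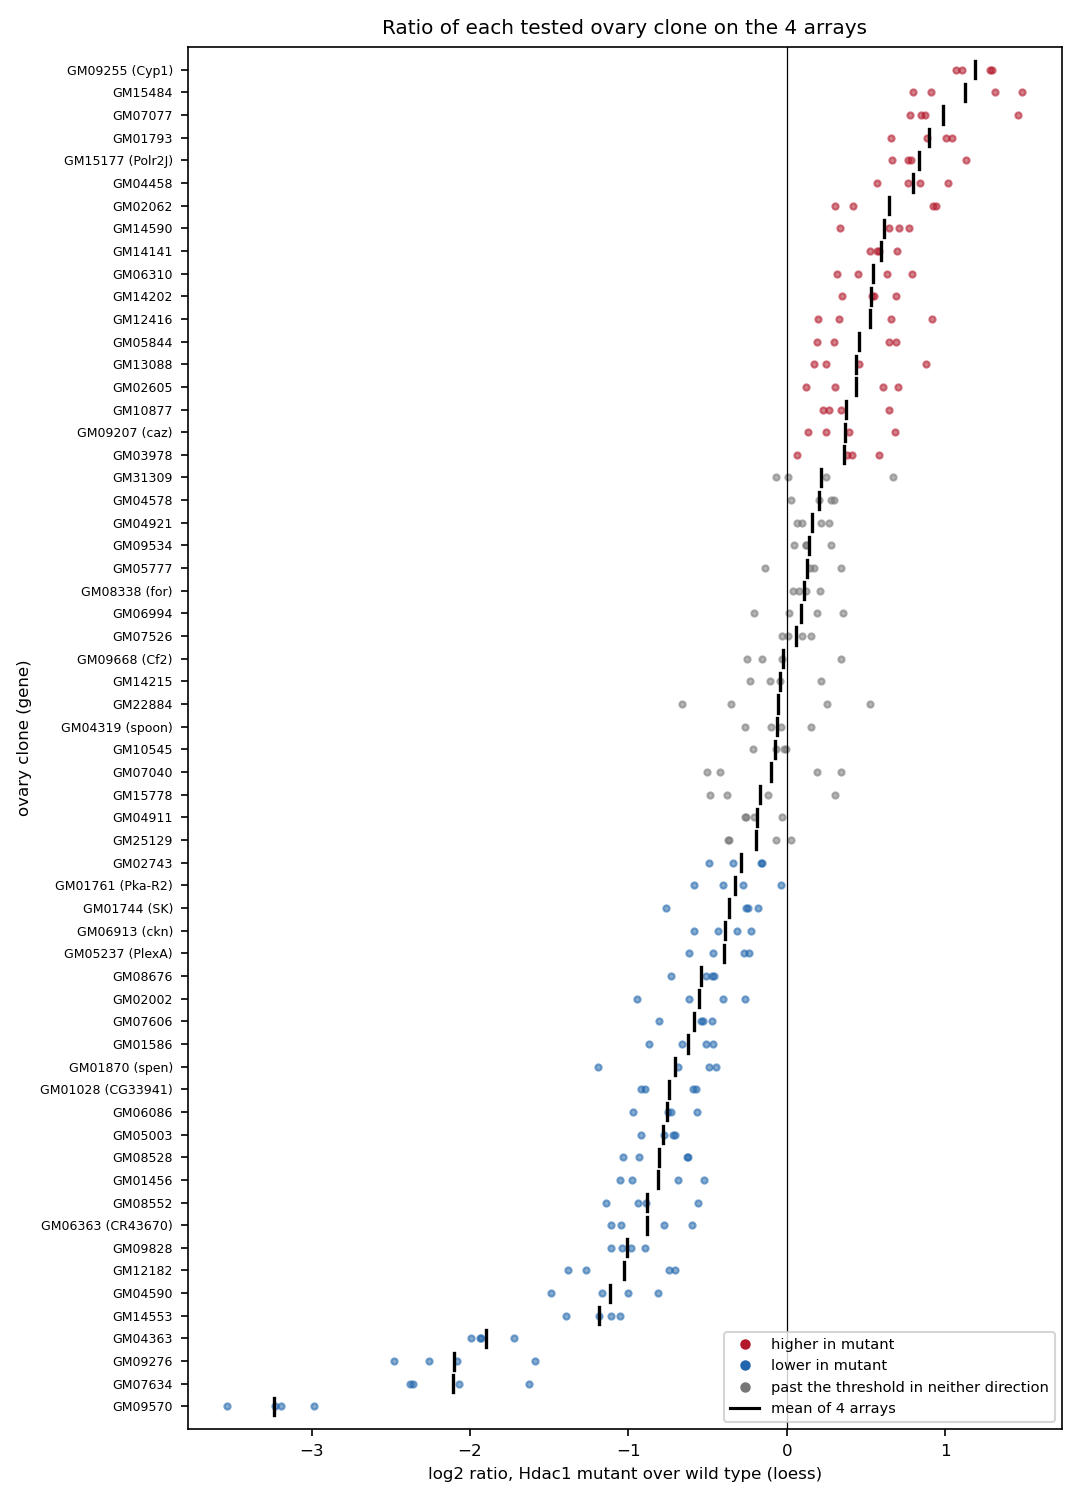
Log2 ratio of Hdac1 mutant over wild type for each of the 60 tested ovary clones, sorted by the mean. Points are the 4 arrays and the black bars their mean. The 4 lowest clones have means from -3.24 to -1.90 and stand apart from the next, at -1.19, while the 2 highest reach 1.13 and 1.19.

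Clones from other libraries on the same arrays gave other medians, as a description with no test of the groups. The median ratio of 60 ovary clones, at -0.07, lay between that of 123 testis clones (-0.37) and that of 36 larva and pupa clones (0.01), and 213 embryo clones were at 0.23. Lower calls made up 41.7% of ovary clones, 53.7% of testis clones, 36.1% of larva and pupa clones and 30.5% of embryo clones. At least 2-fold lower were 13.3% of ovary clones, 27.6% of testis clones, 22.2% of larva and pupa clones and 10.3% of embryo clones. At least 2-fold higher were 3.33% of ovary clones, 7.32% of testis clones, 22.2% of larva and pupa clones and 16.9% of embryo clones. The ovary clones also had the smallest spread of these 4 groups, with an SD over clones of 0.84, against 1.12 for testis, 1.24 for larva and pupa and 0.93 for embryo clones.

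**Figure D2:**
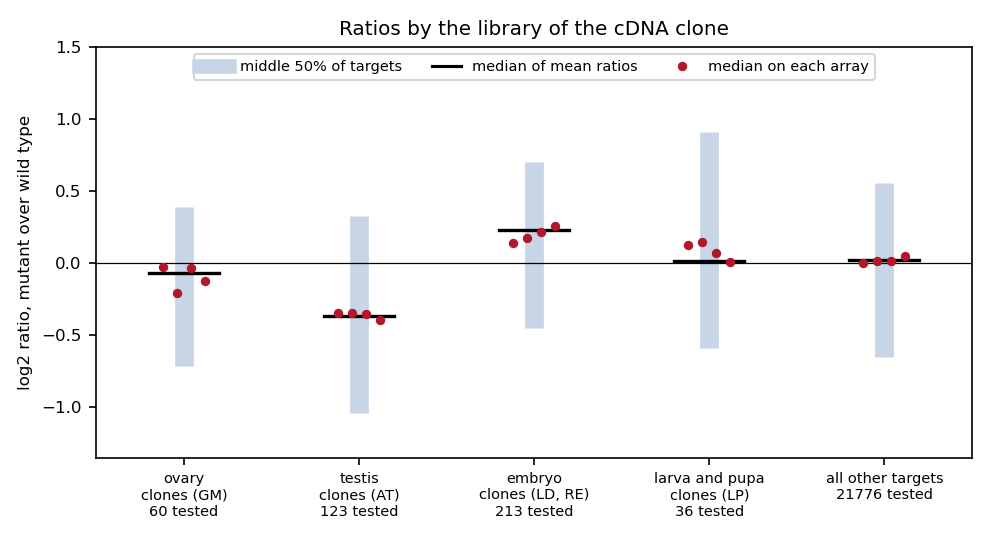
Log2 ratio of mutant over wild type for clones grouped by source library and for all other targets. Bars span the middle 50% of targets, black lines are medians of the mean ratios and red points are the medians on the 4 arrays. The ovary medians run from -0.21 to -0.03 and the testis medians from -0.39 to -0.35.

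The falls were led by clones that have no gene name here. GM09570 had ratios of -3.20, -3.53, -2.98 and -3.23 on the arrays of replicates 1 to 4. Its mean ratio was -3.24 ± 0.23 (SD, n = 4), a 9.42-fold fall, with an adjusted p of 2.62e-08 in limma. The normalised log2 signal of its probe was 9.01 ± 0.25 in mutant larvae and 12.24 ± 0.33 in wild type larvae, and both channels were well above background on all 4 arrays. Its fall was the largest among the ovary clones tested, and the mutant signal was far below the wild type signal on each array.

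GM07634 had ratios of -1.63, -2.07, -2.36 and -2.38. That is a 4.32-fold fall (mean -2.11 ± 0.35, SD, n = 4, limma adjusted p = 6.86e-07), and replicate 1 showed the smallest change. GM04363 had ratios of -1.93, -1.72, -1.93 and -1.99, a 3.72-fold fall that varied little between arrays (mean -1.90 ± 0.12, limma adjusted p = 2.30e-07). Its log2 ratio was -2.64 with the scanner software's own processing, a fall over 1.5 times larger. GM09276 had ratios of -2.08, -1.59, -2.26 and -2.48 at its brightest probe, a 4.30-fold fall (mean -2.10 ± 0.38, limma adjusted p = 8.75e-07). The other probe of GM09276 did not pass the threshold, at 0.02 ± 0.26, with ratios of 0.16, -0.31, -0.04 and 0.29. These 4 clones were lower on every array and in each of the 14 other ways of processing that were tried, as far as their brightest probe goes. With both probes averaged, GM09276 stood at -1.04.

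A second set of 4 clones fell close to 2-fold. GM14553 had ratios of -1.11, -1.19, -1.05 and -1.39 (mean -1.19 ± 0.15). GM04590 had ratios of -0.82, -1.17, -1.01 and -1.49 (mean -1.12 ± 0.28). Its other tested probe gave -1.14 ± 0.24, a 2.20-fold fall on the mean, with replicate 1 at -0.79. That probe was well above background on all 4 arrays in the wild type channel but on none in the mutant channel. The size of the fall at that probe is therefore not settled. GM12182 had ratios of -0.71, -1.38, -0.75 and -1.27 (mean -1.03 ± 0.35), with the larger falls in replicates 2 and 4. GM09828 had ratios of -0.89, -1.04, -0.98 and -1.11 (mean -1.01 ± 0.09), and its other probe gave -0.78 ± 0.09. The limma adjusted p of these 4 clones ran from 4.87e-06 to 8.08e-05. With the scanner software's ratio, GM04590 was at -1.89 and GM09828 at -1.67. With a shift set by the spike-in probes, described further on, none of these 4 passed the threshold (0 of 4), at -0.29, -0.22, -0.13 and -0.11.

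With loess, the rises among ovary clones were smaller than the falls, and 2 of the 8 largest rises have a gene name. This depended on the centring. With the spike-in shift the largest rise stood at 2.08 and the largest fall at -2.34. GM09255 is a clone of Cyp1 (X chromosome), which encodes a cyclophilin, a peptidyl-prolyl isomerase that helps proteins fold. At its brightest probe it had ratios of 1.07, 1.28, 1.11 and 1.29, a 2.28-fold rise (mean 1.19 ± 0.12, SD, n = 4, limma adjusted p = 3.88e-06). The normalised log2 signal there was 13.17 ± 0.19 in mutant larvae and 11.99 ± 0.15 in wild type larvae. A further probe of the clone rose by 0.68 ± 0.08 on the log2 scale. The remaining probe gave the opposite call, at -1.39 ± 0.14, and the mean over the 3 probes was 0.16, not past the threshold (limma adjusted p = 0.145). The direction of the Cyp1 transcript is therefore not settled by these probes.

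GM15484, without a gene name here, had ratios of 0.91, 1.31, 0.80 and 1.49. That is a 2.18-fold rise (mean 1.13 ± 0.33, limma adjusted p = 3.41e-05), with larger values in replicates 2 and 4. Its other probe gave 1.06 ± 0.31, and under median centring the brightest probe stood at 1.92. GM15177 is a clone of Polr2J (chromosome arm 2L), which encodes the RNA polymerase II subunit also called Rpb11. It had ratios of 0.67, 0.79, 0.76 and 1.13, a 1.79-fold rise (mean 0.84 ± 0.20, limma adjusted p = 8.04e-05). Its normalised log2 signal was 14.52 ± 0.13 in mutant larvae and 13.68 ± 0.26 in wild type larvae. With median centring the Polr2J ratio was 1.49, a fold over 1.5 times larger.

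GM07077 had ratios of 0.77, 0.85, 0.87 and 1.46 (mean 0.99 ± 0.32), with replicate 4 apart from the others. GM01793 had ratios of 0.88, 1.04, 0.66 and 1.01 (mean 0.90 ± 0.17). GM04458 had ratios of 0.57, 0.84, 0.77 and 1.02 (mean 0.80 ± 0.18). The other probe of GM04458 gave 0.83 ± 0.13, close to the first. GM02062 had ratios of 0.94, 0.92, 0.42 and 0.30 (mean 0.65 ± 0.33), with replicates 1 and 2 above the others. The limma adjusted p of these 4 rises ran from 3.87e-05 to 0.00151.

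GM14590 was the only ovary clone well above background on 4 of 4 arrays in the mutant channel and on none in the wild type channel. That is 1.47% of the ovary clones, near the 1.08% of all other targets. The ratios of GM14590 were 0.33, 0.64, 0.77 and 0.71 (mean 0.62 ± 0.20). They are given as a description because it passed the filter only through the channel in which it is high. On the loess scale that mean is a 1.53-fold rise. It is not a minimum, since replicate 1 lay below it and the wild type signal was not well above background. The normalised log2 signals were 7.67 in mutant larvae and 7.05 in wild type larvae. Such values were taken per channel after loess and are open to dye bias. With median centring the ratio was 0.000324, and with the scanner software's ratio it was 1.69. The rise therefore does not hold under median centring, and its size is not settled. GM03978 was well above background on 3 arrays in the mutant and on none in wild type. With its wild type signal set no lower than the dimmest probe well above background, the mean rise was 1.26-fold. That is also a description and not a minimum, since the ratio in replicate 1 was 0.06. Its ratio was 0.36 with loess and -0.34 with median centring, so its direction is not settled. No clone showed the reverse pattern at its brightest probe (0 clones), which 1.29% of all other targets did.

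Through older synonyms in a RefSeq gene table, 13 of the 68 clones could be paired with a gene, and all 13 were tested. Of these 3 rose, 7 fell and 3 did not pass the threshold. Over the whole array 38.1% of targets were higher and 37.5% lower, 75.7% in all. No test set the 13 against other targets. The 13 are given by the role of their products. No other target on the array could be paired with any of these genes.

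Of genes for transcription and RNA, Polr2J rose as described. The RNA-binding protein gene caz (GM09207, X chromosome) had ratios of 0.25, 0.13, 0.39 and 0.69 (mean 0.36 ± 0.24, limma adjusted p = 0.0167). All 4 were above 0, but the call was lost without replicate 3 (adjusted p = 0.0511) or replicate 4 (adjusted p = 0.0572). The gene spen (GM01870, arm 2L), whose large nuclear RNA-binding protein takes part in repression and in several signalling pathways, had ratios of -0.69, -1.19, -0.45 and -0.49. That is a 1.63-fold fall (mean -0.70 ± 0.34, limma adjusted p = 0.000918), and its other probe gave -0.66 ± 0.27. Cf2 (GM09668, arm 2L), a zinc finger transcription factor with a known role in the follicle cells of the ovary and in muscle, had ratios of -0.16, -0.25, -0.03 and 0.34 (mean -0.02 ± 0.26, limma adjusted p = 0.863). It did not pass the threshold with loess and stood at 0.78, past it, with median centring.

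Of genes for kinase signalling, Pka-R2 (GM01761, arm 2R), the type II regulatory subunit of the cyclic AMP dependent protein kinase, had ratios of -0.28, -0.59, -0.03 and -0.40 (mean -0.32 ± 0.23, limma adjusted p = 0.0271). Its call was lost without replicate 2 (adjusted p = 0.137) or replicate 4 (adjusted p = 0.0782), and with median centring the ratio was 0.03. The gene spoon (GM04319, X chromosome), which encodes an anchoring protein for the same kinase, did not pass the threshold, with ratios of 0.15, -0.10, -0.04 and -0.26 (mean -0.06 ± 0.17). The foraging gene for (GM08338, arm 2L), a cyclic GMP dependent protein kinase known for its part in larval feeding behaviour, had ratios of 0.08, 0.21, 0.12 and 0.04 (mean 0.11 ± 0.07, limma adjusted p = 0.324). It turned to -0.44, past the threshold, with median centring.

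Of genes for neuronal and membrane proteins, PlexA (GM05237, chromosome 4), a semaphorin receptor used in axon guidance, had ratios of -0.27, -0.62, -0.24 and -0.47 (mean -0.40 ± 0.18, limma adjusted p = 0.00716). The gene ckn (GM06913, arm 2R), which encodes the scaffold protein caskin, had ratios of -0.31, -0.59, -0.22 and -0.44 (mean -0.39 ± 0.16, limma adjusted p = 0.00704), and its other probe gave -0.37 ± 0.09. The calcium-activated potassium channel gene SK (GM01744, X chromosome) had ratios of -0.76, -0.26, -0.24 and -0.19 (mean -0.36 ± 0.27, limma adjusted p = 0.0208). Replicate 1 decided the SK call, which was lost without it (-0.23, adjusted p = 0.124), and its other probe was at 0.11 ± 0.08. All 3 falls were under 1.4-fold and none passed the threshold with median centring (0 of 3), which gave 0.02 for PlexA, -0.16 for ckn and 0.01 for SK.

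The other 2 clones with a gene name both fell. GM06363 belongs to CR43670 (arm 2L), annotated as a pseudogene, and had ratios of -0.77, -1.11, -0.60 and -1.05, a 1.84-fold fall (mean -0.88 ± 0.24, limma adjusted p = 7.65e-05). A transcript of a pseudogene may share sequence with its parent gene, and the probe sequences were not available to check this. GM01028 belongs to CG33941 (chromosome 4), a protein-coding gene without a further name, and had ratios of -0.57, -0.92, -0.59 and -0.90, a 1.68-fold fall (mean -0.75 ± 0.19, limma adjusted p = 0.000155). A clone name shows which gene its cDNA was once paired with, and neither the strand nor the position of its probe was checked.

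The 4 clones with the highest wild type signal at their probe were GM31309, GM15778, Cf2 and GM15484. Signals of different probes are not set against each other here, since they depend on the probe. GM31309 had ratios of 0.67, 0.01, 0.25 and -0.07 (mean 0.21 ± 0.33, limma adjusted p = 0.169), and GM15778 had ratios of 0.31, -0.38, -0.12 and -0.49 (mean -0.17 ± 0.35, limma adjusted p = 0.284). Both varied in sign between arrays and did not pass the threshold. With median centring GM31309 stood at 1.15 and GM15778 at 0.74, both past it, and without replicate 1 GM15778 was called lower (-0.33, adjusted p = 0.0452).

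The clones described neither above nor below, counted here together with GM03978, all had mean ratios under 2-fold. Of these, 9 fell, by mean ratios from -0.88 to -0.29, and 8 rose, by 0.36 to 0.59. A further 12 did not pass the threshold, with means from -0.19 to 0.20 and single-array ratios from -0.66 to 0.53. The calls of GM02743, chosen after its values were seen, and of GM03978 were each lost with more than 1 of the single replicates left out.

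Agreement between probes of 1 clone could be followed for 18 clones with at least 2 tested probes. Over all probes on the array, 75.7% passed the threshold in a fit by probe. The probes of 12 of the 18 clones had ratios of 1 sign (66.7%), against 73.2% of 4646 other targets with several tested probes, and 10 clones gave the same call at each probe (55.6%, against 61.0%). For 3 clones (16.7%), against 12.1% of the other targets, 1 probe was called higher and another lower. These were GM09255 (Cyp1), GM06086 and GM10877. GM06086 had ratios of -0.75, -0.73, -0.57 and -0.97 at its brightest probe (mean -0.75 ± 0.17, limma adjusted p = 0.000120) and 0.25, 0.27, 0.25 and 0.38 at the other (mean 0.29 ± 0.06). GM10877 had ratios of 0.65, 0.27, 0.23 and 0.34 at its brightest probe (mean 0.37 ± 0.19, limma adjusted p = 0.0111) and -0.79, -0.89, -0.88 and -0.88 at the other (mean -0.86 ± 0.05). Both clones were picked for their opposite calls, so it adds nothing that their 2 probes had opposite signs on each array. GM10877 turned to -0.24 with its probes averaged, and its rise was lost without replicate 1 (adjusted p = 0.0672).

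**Figure D3:**
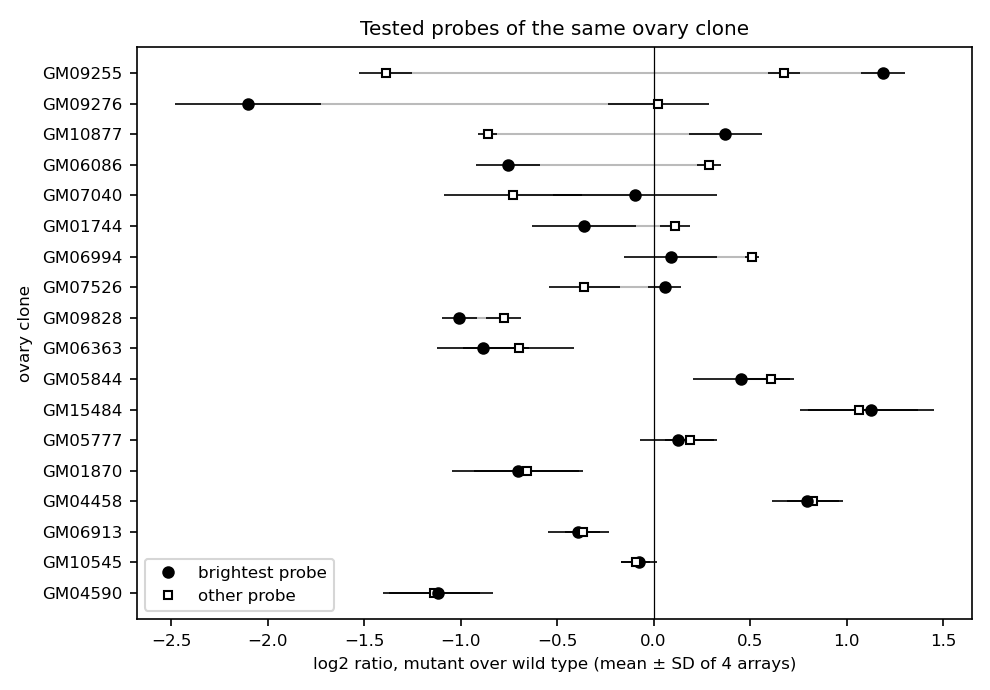
Log2 ratio of mutant over wild type (mean and SD of 4 arrays) at every tested probe of the 18 ovary clones with at least 2 tested probes, with the clones that differ most at the top. Filled circles are the brightest probes and open squares the others. The probes of GM09255 span 2.58 on the log2 scale and those of GM04590 only 0.017.

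The 8 clones that were not tested were dim in both channels. Of these 5 were well above background in neither channel on any array, and 3 were so on at least 1 array. Their ratios on single arrays ran from -0.34 to 0.40. At their brightest probe, 54 of the 68 clones (79.4%) were well above background in both channels on all 4 arrays, against 75.8% of other targets.

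Calls of the ovary clones depended on how the arrays were centred. Relative to loess, median centring shifted all targets at the median by 0.11 (log2). It gave 18 higher and 15 lower ovary clones, beside 38.9% and 29.1% of all targets. The scanner software's own ratio gave 23 higher and 21 lower clones, beside 41.9% and 35.5% of all targets. A shift set by the spike-in probes, whose amounts are unknown here, moved mean ratios by 0.90. It ran from 0.65 to 1.14 on single arrays and came from a statistic of the scanner software, applied to loess ratios. It gave 41 higher and 4 lower clones, beside 71.7% and 12.1% of all targets, so higher clones made up 91.1% of the calls, against 41.9% with loess. The median of the ovary clones was 0.04 with median centring, 0.01 with the scanner software's ratio and 0.83 with the spike-in shift, so its sign is not fixed. Its distance from the median of other targets was -0.09, -0.10 and -0.09 under these, and -0.09 with loess.

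Clone by clone, 15 of 60 kept their call under each of the 14 alternatives, 11 of them higher and 4 lower. The 4 are GM09570, GM07634, GM09276 and GM04363, and with the spike-in shift they stood at -2.34, -1.21, -1.21 and -1.001. Leaving that shift aside, 31 clones kept their call, namely 11 that rose, 14 that fell and 6 that did not pass the threshold. With each replicate left out in turn, 53 of 60 kept their call. The matching shares over all targets are not given here, so these counts show nothing particular to ovary clones. Among the 14, the submitters' table repeats the scanner software's ratio and is not a separate check.

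**Figure D4:**
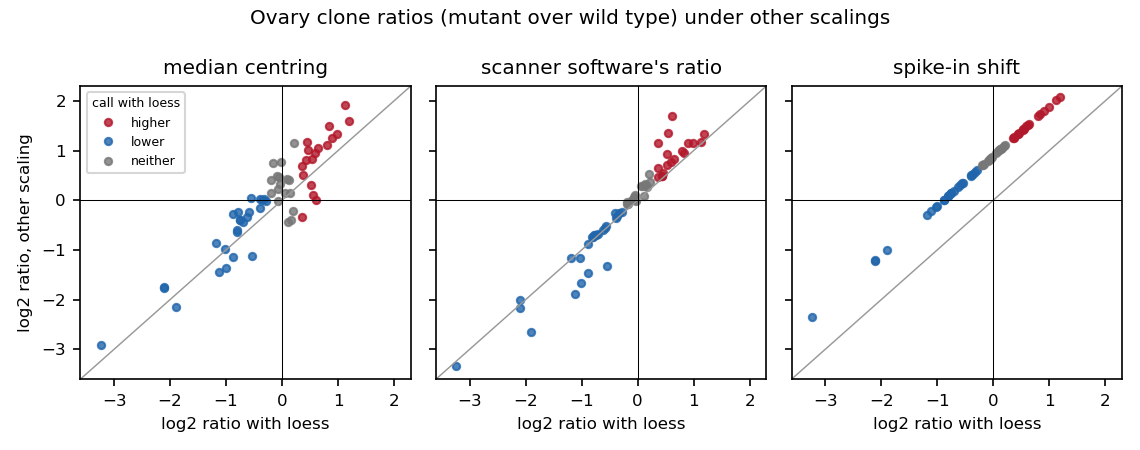
Log2 ratio of mutant over wild type of the 60 ovary clones with loess (horizontal axes) and with 3 other scalings (vertical axes), coloured by the call with loess. The grey line marks equal values. The spike-in shift moves the mean ratios of the clones by 0.90 and median centring moves single clones in both directions.

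Other markers in the same larvae are given for comparison, and their part in the ratios of the ovary clones was not tested. Of 12 genes for male RNAs and testis only roX1 and roX2, noncoding RNAs of the male dosage compensation complex, could be paired, and all 4 of their targets were lower. The roX2 targets were at -1.17 ± 0.32 and -2.19 ± 0.57 (SD, n = 4), and with the spike-in shift at -0.28, no longer past the threshold, and -1.29. The roX1 targets were at -0.49 ± 0.43, with replicate 1 at 0.11, and at -0.63 ± 0.29. With median centring they were at -0.05 and 0.13, neither past the threshold. With the spike-in shift they were at 0.40, called higher, and at 0.26, not past the threshold. Of 35 markers of somatic larval tissue 7 could be paired, of which 1 was higher and 3 were lower. The gut lysozyme gene LysE was at 2.51 ± 0.47 and the cuticle protein gene Cpr60D at -2.24 ± 0.65, both called in the same direction under all 3 other scalings. Of the other 2 lower markers, Sh was at -0.30 and eya at -0.47, and both turned to higher calls with the spike-in shift. These 4 were named after their values were seen.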

How the data were processed

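Per the file headers, Agilent Feature Extraction 10.5.1.1 measured the spots, on a design annotated on release 5 of the genome. Each deposited intensity is the median over the pixels of a spot or its local background, and a log10 ratio (red over green) computed by the software was deposited beside it. The submitters' deposited table holds the same log10 ratios. All 4 arrays are on 1 slide and were scanned in 1 scan, with 0 saturated spots. Here median intensities were corrected with normexp (offset 50) and loess (control spots at weight 0) in limma 3.58.1 under R 4.3.3. Control spots and 27 to 83 non-uniform spots per array were left out, spots of a probe averaged, and the brightest tested probe taken per target. The mean log2 ratio was tested with lmFit and eBayes over all targets. The fit was also run on simulated independent ratios with most targets unchanged, unlike the real arrays, where 75.7% of targets were called. That simulation held no dye effect and no shift of centring, so it cannot speak to either. Alternatives were no background correction, plain subtraction, median centring, a shift set by spike-in probes, the scanner software's ratio, the submitters' table, no filter and a stricter filter on dim probes, averaged probes, other outlier flags, and each replicate left out. Gene names come from a RefSeq table of release 6. Named are the 8 largest rises and falls, clones paired with 1 gene, the 4 with the highest wild type signal, those seen in 1 channel, and those whose probes gave opposite calls. The clones, lists and tests were chosen with earlier results of these data known. The number of arrays limits the precision, and p-values measure the spread between these samples.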

Additional observations from a re-analysis of the deposited data

Results flagged for a closer look

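Of 32 mean ratios examined, 2 had a single array lying well away from the other 3, and about 1 in 20 would by chance. Replicate 1 stood apart for SK (GM01744), at -0.76 with the others from -0.26 to -0.19. Replicate 4 stood apart for GM07077, at 1.46 with the others from 0.77 to 0.87. Both values are mutant over wild type on the log2 scale.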

How the results depend on the processing

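Over the 14 alternatives, the count of ovary clones past the threshold ran within 1.5 times of 43, from 33 to 45. Median centring left 15 lower clones and the spike-in shift 4, against 25 with loess, and the shift gave 41 higher clones, against 18. Median centring put the median of the clones at 0.039 and the spike-in shift at 0.83. With each replicate left out, 40 to 42 clones were called (16 to 17 higher and 23 to 25 lower), the median ran from -0.13 to -0.046, and targets called over the whole array from 15194 to 15903. Of the 60 clones, the sign of the ratio turned for 16 with median centring (4 called lower and 1 higher), for 5 with the scanner software's ratio (0 called) and for 26 with the spike-in shift (17 called lower). Among the clones described singly, it turned with median centring for PlexA, GM05237 (0.018), SK, GM01744 (0.0057), and Pka-R2, GM01761 (0.032). The same held for GM15778 (0.74), Cf2, GM09668 (0.78), for, GM08338 (-0.44), and GM03978 (-0.34). Among them it turned with the scanner software's ratio, and with the submitters' table that repeats it, for spoon, GM04319 (0.071). With the spike-in shift it turned among them for CR43670, GM06363 (0.012), GM06086 (0.14), CG33941, GM01028 (0.15), spen, GM01870 (0.19), PlexA (0.50), ckn, GM06913 (0.50), SK (0.53), Pka-R2 (0.57), GM15778 (0.73), spoon (0.83) and Cf2 (0.87), and with averaged probes for GM10877 (-0.24). With a replicate left out, Cf2 ran from -0.15 to 0.052 and spoon from -0.13 to 0.0032. The cause was not tested. No paired analysis was possible because there is no second group of arrays to pair, and the ratio within an array already sets 1 mutant sample against 1 wild type sample. Low signal over background kept 8 clones from being tested.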
